A study of Mus musculus with 6 samples.

Results

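The cytosolic ribosomal protein genes were described here in the hippocampus of mouse pups kept in air or in hyperoxia. They were taken by name from the deposited table as the protein-coding genes whose symbol starts with Rpl or Rps, with the S6 kinases (Rps6k genes) left out, and came to 95 of 24935 genes. Of these, 46 encode main proteins of the large subunit and 31 main proteins of the small subunit. A further 7 are paralogs of a main gene, 10 are copies that carry a pseudogene suffix in their symbol, and 1, Rps19bp1, encodes a protein that binds a ribosomal protein. A mean normalized read count of at least 10 over the 6 libraries was asked for before testing, and 87 of the 95 passed, among them 45 large and 31 small subunit genes.

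The study asked how oxygen exposure in early life changes the developing hippocampus. C57BL/6 pups of both sexes were kept with their dams in 85% oxygen (hyperoxia) or in room air from postnatal day 2 to 14, and RNA of the left hippocampus was taken at postnatal day 14 from 3 pups of each group. No genetic change is named for either group and the litters of the 6 pups are unknown here. The measure is a normalized read count, that is the reads on a gene divided by 1 factor per library. The columns of the table name the group and a number but no animal, so every direction below rests on the group named there. That direction is uncertain: the sources used here give RNA differences of opposite sign and similar size for the genes compared. These were Rps6, Rpl38, Mtor, Myc, Mrps21, Cspg4 and the neuron markers Camk2a and Slc17a7. No value in the table settles which group a column holds. If the column names were exchanged, every higher and lower below would turn, while the sizes and the calls would stand.

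A cytosolic ribosome is built from ribosomal RNA and one copy of nearly every ribosomal protein, with a large subunit that forms peptide bonds and a small subunit that reads the mRNA. The mRNAs of these proteins start with a pyrimidine tract, the 5′ terminal oligopyrimidine (TOP) motif, through which mTOR and the RNA-binding protein LARP1 control their translation together. In neurons, ribosomes in dendrites make protein near synapses, and new protein is needed for lasting memory.

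The longest pyrimidine run near the annotated start is shown for genes at both ends of the comparison, because a pyrimidine tract marks the mRNAs of the family. Each line gives 30 bases, 5′ to 3′ on the strand of the gene, from RefSeq on GRCm38.p6, with the longest unbroken run of C and T between 20 bases before and 50 bases after the RefSeq start in capitals. The lines are placed around the run and not around the start: the run begins 14 to 41 bases after the start in Rpl11, Rpl23, Rps3a1, Rpl19 and Rpl10, where the window cuts it off, and 20 bases before it in Rpl5, so these lines do not show a terminal tract. The genes are those of the 8 largest falls and 8 largest rises that passed the test and have an entry in the table of starts, and Rps6. Rpl13a, Rpl11, Rpl19 and Rpl5 fell in hyperoxia, as did Rpl23 and Rps3a1, whose longest run has only 6 bases. Rps18 and Rpl10 rose, and Rps6 did not pass the test.
Rpl13a (chr7:45128722-45128751, minus strand): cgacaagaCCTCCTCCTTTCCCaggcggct
Rpl11 (chr4:136053358-136053387, minus strand): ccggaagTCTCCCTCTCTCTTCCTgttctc
Rpl19 (chr11:98026944-98026973, plus strand): gcggcccacaagCTCTTTCCTTTCgctgct
Rpl5 (chr5:107900497-107900526, plus strand): gcctacagccaCTCTTTCTCacgtcgcttg
Rpl23 (chr11:97782404-97782433, minus strand): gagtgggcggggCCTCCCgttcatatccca
Rps3a1 (chr3:86142623-86142652, minus strand): acgtagacggcgCTCCCCgcccggctcgcg
Rps6 (chr4:86857349-86857378, minus strand): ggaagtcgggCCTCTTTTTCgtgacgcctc
Rps18 (chr17:33955648-33955677, minus strand): gtcacttccgCTCTCTCTTCCacaggaggc
Rpl10 (chrX:74270836-74270865, plus strand): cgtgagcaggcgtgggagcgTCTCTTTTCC

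A start was found in RefSeq for 56 of the 76 tested subunit genes. A run of at least 8 pyrimidines lay in the window from 20 bases before to 50 bases after the start in 45 of them (80.4%), against 28.5% of the 27025 genes with a RefSeq start. In this paragraph, all genes means these 27025. The same length of purines, which is a pyrimidine run on the other strand, was found in 6 (10.7%), against 31.7% of all genes. Among the 10 genes that were lower in hyperoxia and have a start, 7 held the run, as did 4 of the 6 that were higher and 34 of the 40 that did not pass the test. Over the 300 bases from 250 before to 50 after the start, CGGAAG, the core of the sites of ETS factors, occurred on either strand in 39 of the 56 (69.6%), against 18.8% of all genes. AAGATGG, the core of the YY1 site, occurred on either strand in 9 (16.1%), against 7.28%. The last 3 letters of CGGAAG are the first 3 of AAGATGG, so the matches can overlap.

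In the 6 libraries, 30384052 to 38746972 reads lay on genes, of which 323081 to 362099 were on the 95 ribosomal protein genes. A tested subunit gene had between 300 and 19919 reads in a library, with a median of 3608. Hyperoxia library 2 stood apart: 49 of the 76 tested subunit genes had their highest value of all 6 libraries there, and 65 had their highest value among the 3 hyperoxia libraries. In that library, mt- genes took 9.89% of the reads, against 7.53% and 6.98% in hyperoxia libraries 1 and 3 and 9.78% to 10.3% in air. Malat1, Neat1 and Meg3, nuclear noncoding RNAs, took 0.359% of its reads, the lowest share of the 6 libraries, which ranged up to 0.568%. The part of these library differences in the results below was not tested, so the main counts are given with and without hyperoxia library 2.

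All hippocampal and other cell type markers checked were above 0 in every library. The summed value of 6 pyramidal and granule neuron markers was 241070 to 252725 in air and 167084 to 192577 in hyperoxia, with 5 of the 6 lower by the test used for the ribosomal protein genes. That of 5 oligodendrocyte markers was 185805 to 279438 in air and 130580 to 160742 in hyperoxia, with 4 lower. Both oligodendrocyte precursor markers were higher, with sums of 4381 to 4813 in air and 6477 to 6716 in hyperoxia. Of 5 astrocyte markers 2 were higher and 1 lower, and their sum was 183903 to 196747 in air and 216640 to 239331 in hyperoxia. Choroid plexus markers summed to 7705 in hyperoxia library 3 and to between 211.7 and 973.3 in the other 5. Hyperoxia library 2 had the highest sums of microglia markers (9600 to 9638 in air, 9911 to 11076 in hyperoxia), endothelium markers (5178 to 5618 and 5879 to 6783) and red blood cell markers (1538 to 2482 and 2324 to 3709). By the test, 1 of 5 microglia markers was higher. Of 4 endothelium and of 4 red blood cell markers, 1 each was higher and 1 lower. None of 3 interneuron and 4 choroid plexus markers passed. In whole tissue, fewer cells of a type and less RNA per cell cannot be told apart, and the part of these shifts in the ribosomal protein genes was not tested.

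The ribosomal protein genes did not move as a block in hyperoxia. Of the 87 tested, 12 were higher and 16 were lower at an adjusted p under 0.05 (limma, Benjamini-Hochberg adjustment over all genes tested), and all 28 are main subunit genes. That is 32.2% of the genes tested, close to the 30.5% of all 17778 genes that passed (14.9% higher and 15.6% lower), so the share of calls is not a result about these genes. Their median log2 difference, hyperoxia minus air, was 0.02, and that of all genes was -0.01. The groups did not overlap for 21 genes that lay above air in all 3 hyperoxia libraries and 19 that lay below it, 46.0% of those tested against 46.1% of all genes. Without hyperoxia library 2, 14 were higher and 31 lower and the median was -0.12, beside 43.6% of all genes (21.6% higher and 22.0% lower). That library was singled out because these genes were high in it, so a lower median follows from the choice. The median was 0.10 without hyperoxia library 1 and 0.08 without hyperoxia library 3. With the smooth trend of each library on transcript length and GC content removed, 31 were higher and 11 lower and the median was 0.14, beside 34.1% of the 17735 genes with a length (14.6% higher and 19.5% lower). Leaving out an air library gave 10 calls without library 1, 15 without library 2 and 14 without library 3, beside 17.1%, 17.4% and 20.6% of all genes. With size factors taken from the subunit genes themselves, which was chosen after seeing the data, 6 were higher and 13 lower, beside 13.1% of all genes (4.76% higher and 8.34% lower). In this setting the genes are their own reference and their common library shift passes to the other genes. The 2 shares therefore cannot be compared as before.

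**Figure D1:**
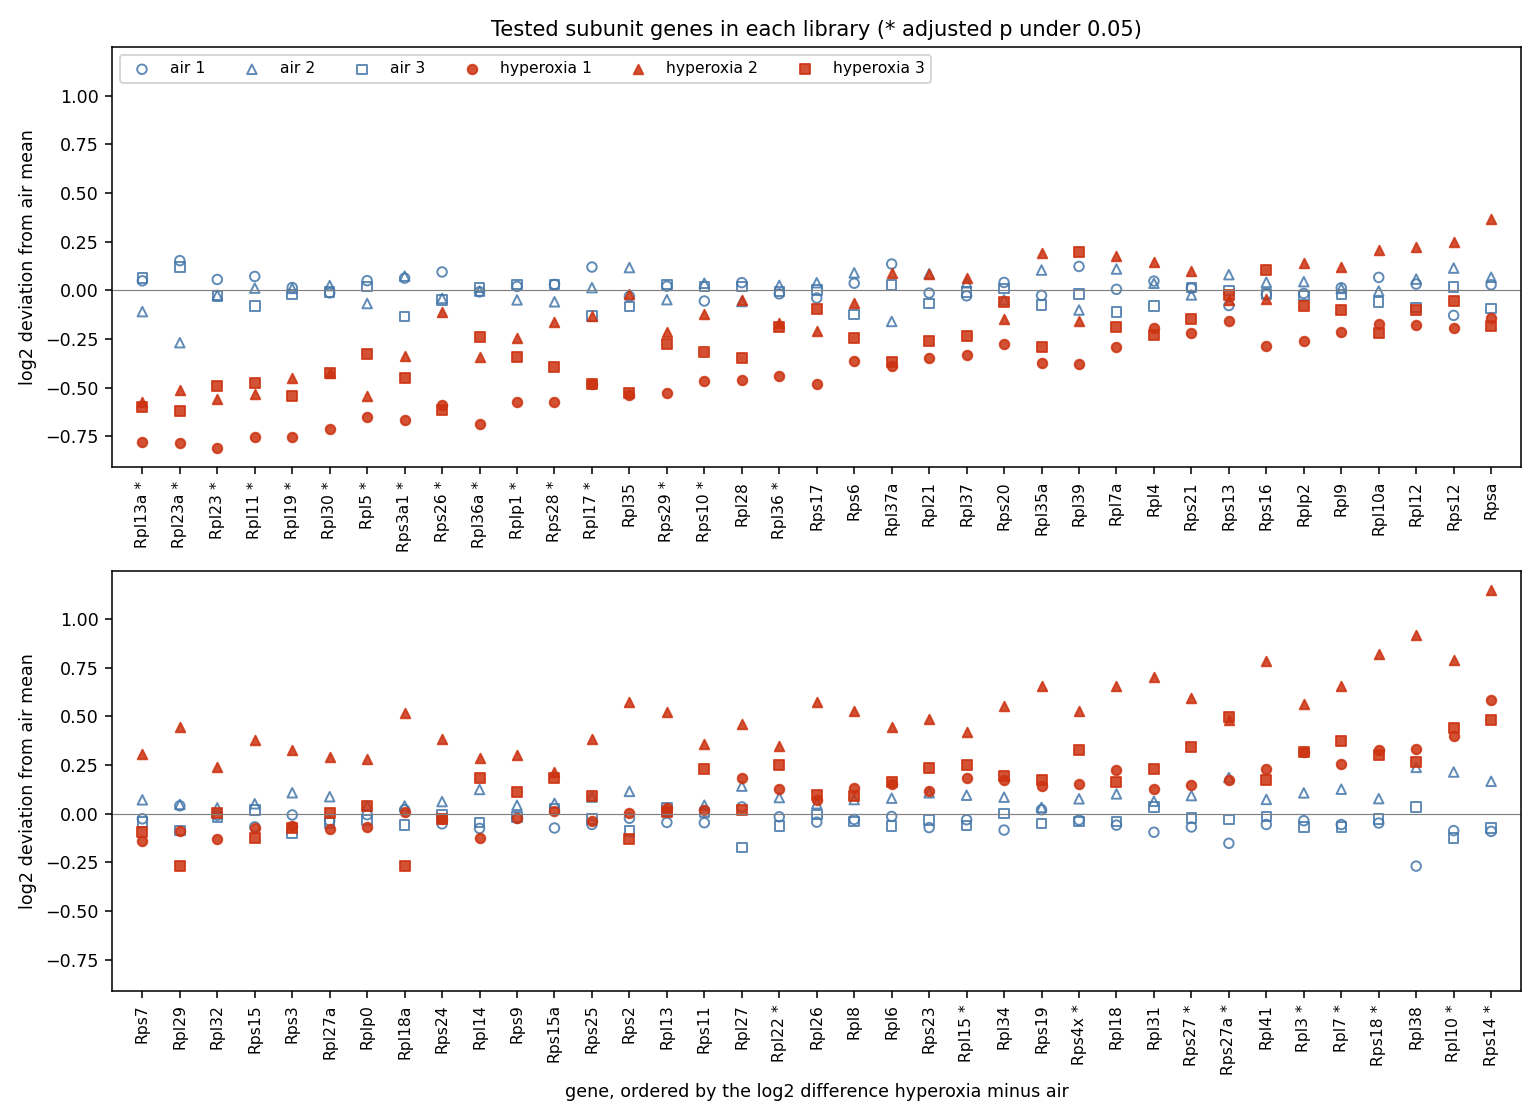
Log2 deviation from the air mean (log2 of the normalized read count plus 1) of the tested subunit genes reported here in each of the 6 libraries, with genes ordered along the axis by their log2 difference, hyperoxia minus air, and an asterisk for an adjusted p under 0.05. The 3 hyperoxia libraries lie below the air libraries at the left end and above them at the right end, and hyperoxia library 2 lies highest for most genes.

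As a share of all reads on genes, the 95 genes took 0.935%, 0.984% and 0.924% in the air libraries and 0.913%, 1.18% and 0.951% in the hyperoxia libraries, each in the order 1 to 3, which all values below keep. The groups overlapped, with means of 0.947% ± 0.0322 (SD, n = 3) in air and 1.01% ± 0.142 in hyperoxia, a log2 ratio of 0.10 that was -0.02 without hyperoxia library 2. The large subunit genes took 0.553% ± 0.0161 in air and 0.578% ± 0.0772 in hyperoxia, and the small subunit genes 0.385% ± 0.0162 and 0.426% ± 0.0643.

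Per kilobase of transcript, the subunit genes spanned a wide range of levels in both groups. Rplp1, a protein of the stalk of the large subunit, was the highest with a mean level of 22493 normalized reads per kilobase in air and 17268 in hyperoxia. Rps15, Rps2 and Rpl4 followed in air with 15455, 13196 and 10473. Rpl13a was the lowest of those tested, at 484.4 in air and 308.2 in hyperoxia. These levels depend on the annotated transcript chosen for each gene and on how reads that match several copies were counted. Only 43.7% of the 75-base windows of Rpl13a occur in no other annotated gene. Across the 76 genes, the log2 difference had a Spearman correlation of -0.28 with the level per kilobase in air, 0.10 with transcript length, 0.11 with GC content and 0.17 with coding length, given as descriptions over genes that share libraries and, for the level, share the air values.

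Of the 45 large subunit genes tested, 5 were higher and 11 lower in hyperoxia, with a median log2 difference of -0.06, and of the 31 small subunit genes 7 were higher and 5 lower, with a median of 0.06. Without hyperoxia library 2 the large subunit had 7 higher and 20 lower and the small subunit 7 and 8, with medians of -0.16 and -0.07. Without air libraries 1, 2 and 3 in turn, the large subunit had 8, 11 and 11 calls and the small subunit 2, 4 and 3. Of all genes, 17.1%, 17.4% and 20.6% passed under these 3 settings. As shares of those tested, 35.6% of the large and 38.7% of the small subunit genes passed, beside 30.5% of all genes, and 60.0% and 48.4% without hyperoxia library 2, beside 43.6%. The difference between the subunits was not tested.

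**Figure D2:**
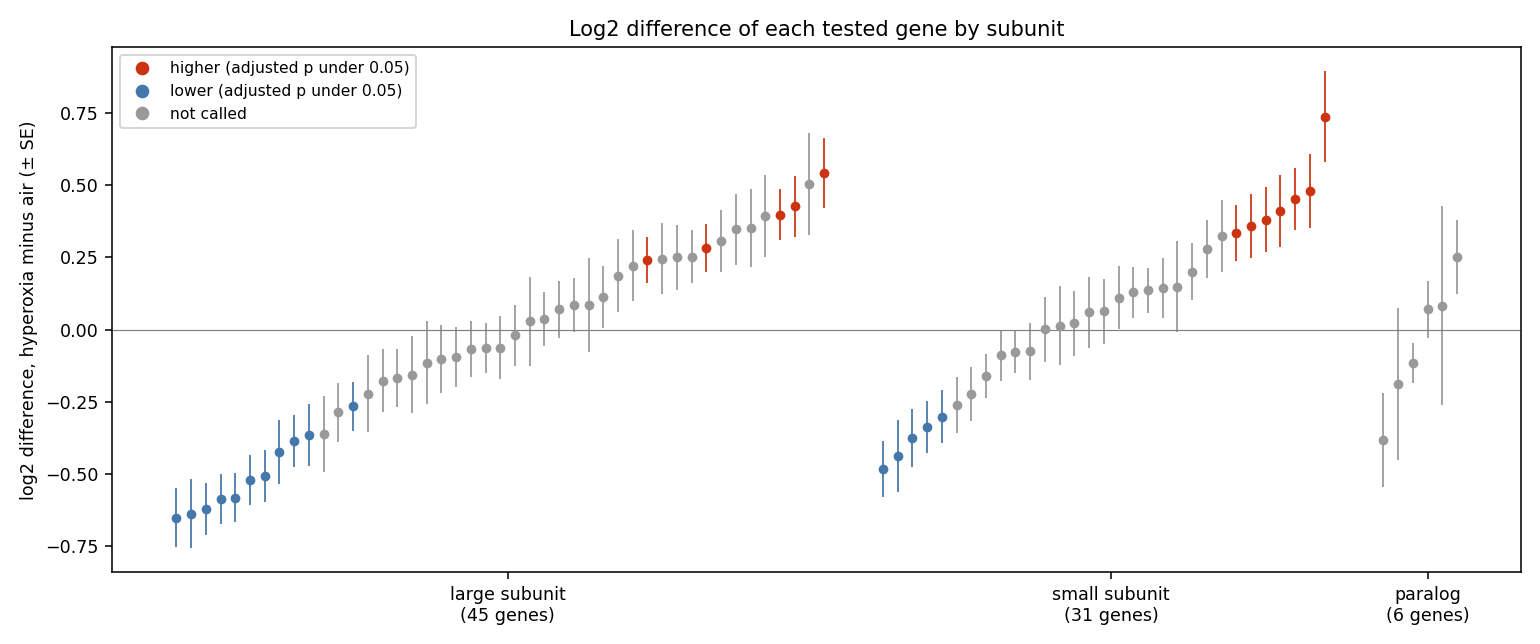
Log2 difference, hyperoxia minus air, of each tested large subunit gene (45), small subunit gene (31) and paralog (6), with the limma standard error as a bar and with red and blue marking higher and lower values at an adjusted p under 0.05. Both subunits spread to either side of 0, from -0.65 to 0.54 in the large and from -0.48 to 0.74 in the small.

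Rpl5 and Rpl11, which carry the 5S ribosomal RNA into the large subunit and which bind MDM2 when ribosome assembly fails, were both lower in hyperoxia. Rpl5 (chr5:107900502-107909005 on GRCm38, plus strand) had normalized read counts of 5326, 4909 and 5217 in air and of 3279, 3533 and 4095 in hyperoxia. No hyperoxia value reached the lowest air value, and Rpl5 fell by 0.51 ± 0.09 (SE) on the log2 scale with an adjusted p of 0.00333. Rpl11 (chr4:136028265-136053428, minus strand) had 5263, 5049 and 4737 in air and 2975, 3462 and 3602 in hyperoxia, again without overlap. It fell by 0.59 ± 0.09 with an adjusted p of 0.00166. Both passed under all 18 alternative settings, with adjusted p-values of at most 0.0361 for Rpl5 and 0.0153 for Rpl11. An exon of Rpl5 overlaps Fam69a on the other strand, and whether the counting used the strand is not known here.

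The stalk proteins, a pentamer on the large subunit that recruits the elongation factors, differed among themselves. Rplp1 had 11374, 10839 and 11458 in air and 7543, 9477 and 8830 in hyperoxia, all 3 below air. It fell by 0.39 ± 0.09 on the log2 scale (adjusted p = 0.0110), but by 0.07 (adjusted p = 0.596) with the trend on length and GC content removed and with an adjusted p of 0.0528 without air library 1. Rplp0, the base of the stalk, had 10447, 10787 and 10251 in air and 10015, 12758 and 10774 in hyperoxia, and the groups overlapped (log2 difference 0.08 ± 0.09, adjusted p = 0.517). With the trend on length and GC content removed it had a log2 difference of 0.21 with an adjusted p of 0.0305. Rplp2 had 3528, 3680 and 3504 in air and 2975, 3927 and 3377 in hyperoxia, also with overlap (-0.07 ± 0.10, adjusted p = 0.624).

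The largest falls of the family that passed the test were in large subunit genes. Rpl13a, which also belongs to a complex that holds back the translation of inflammatory mRNAs, had 523.6, 469.1 and 528.7 in air and 294.4, 339.6 and 334.0 in hyperoxia. It fell by 0.65 ± 0.10 on the log2 scale, with an adjusted p of 0.00195 and the hyperoxia values all well under the air values. Rpl23a had 2065, 1542 and 2017 in air and 1080, 1304 and 1208 in hyperoxia and fell by 0.64 ± 0.12 (adjusted p = 0.00455). Only 18.3% of its 75-base windows occur in no other annotated transcript and it has 16 pseudogenes with such a window, so reads could be split among copies. Across the 76 tested subunit genes this share ran from 1.48% to 100%, with a median of 60.0%. It was 30.1% in Rpl19 and 39.0% in Rpl11.

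Rpl23, another large subunit protein that binds MDM2, had 6227, 5889 and 5872 in air and 3414, 4062 and 4268 in hyperoxia. It fell by 0.62 ± 0.09 with an adjusted p of 0.00156 and without overlap. Rpl19, which forms a bridge between the subunits, had 4603, 4588 and 4488 in air and 2708, 3333 and 3127 in hyperoxia and fell by 0.58 ± 0.08 (adjusted p = 0.00156). Rpl30 had 3592, 3687 and 3600 in air and 2210, 2696 and 2705 in hyperoxia and fell by 0.52 ± 0.09 (adjusted p = 0.00281). In both genes the 3 air values lay closer together than the 3 hyperoxia values, and all hyperoxia values lay below air. An exon of Rpl19 overlaps Gm11629 on the same strand, so its count is uncertain.

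In the small subunit, Rps3a1, a protein at the exit of the mRNA channel, showed the largest fall. It had 7915, 7972 and 6909 in air and 4780, 6006 and 5555 in hyperoxia and fell by 0.48 ± 0.10 (adjusted p = 0.00606). These 8 genes (Rpl13a, Rpl23a, Rpl23, Rpl11, Rpl19, Rpl30, Rpl5 and Rps3a1) were lower at an adjusted p under 0.05 under every one of the 18 alternatives, each library left out in turn included. In hyperoxia library 2, where most of the family was high, all 8 were still below the lowest air library.

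The largest rise was that of Rps14, a small subunit protein of the platform whose loss on 1 allele causes the anemia of the human 5q- syndrome. It had 1625, 1942 and 1645 in air and 2593, 3841 and 2414 in hyperoxia, all 3 above air. The log2 difference was 0.74 ± 0.16 (adjusted p = 0.00779) and 0.53 without hyperoxia library 2, with adjusted p-values of at most 0.0440 under all 18 alternatives. No other gene that was higher kept its call under all of them.

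Rpl10, which joins the large subunit late in its assembly, had 2059, 2537 and 2006 in air and 2884, 3775 and 2971 in hyperoxia, with a log2 difference of 0.54 ± 0.12 (adjusted p = 0.00983). It missed the threshold without air library 1 (adjusted p = 0.0531), and only 15.1% of its 75-base windows are its own. Rpl3, near the peptidyl transferase center, had 7103, 7843 and 6946 in air and 9056, 10772 and 9071 in hyperoxia, again without overlap (0.40 ± 0.09, adjusted p = 0.00942, and 0.0542 with size factors from the subunit genes). Of the 75-base windows of Rpl3, 16.8% are its own. Rpl7 had 4226, 4793 and 4192 in air and 5248, 6912 and 5691 in hyperoxia (0.43 ± 0.11, adjusted p = 0.0144). Its adjusted p was 0.0690 without air library 1 and 0.0615 without air library 3.

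Further small subunit genes rose without overlap between the groups. Rps18, a protein of the head of the small subunit, had 2160, 2357 and 2193 in air and 2802, 3939 and 2751 in hyperoxia (0.48 ± 0.13, adjusted p = 0.0194). Rps4x, the X-linked form of its protein, had 4780, 5156 and 4753 in air and 5429, 7049 and 6134 in hyperoxia (0.33 ± 0.10, adjusted p = 0.0272). Leaving out an air library took the adjusted p of Rps18 to between 0.0518 and 0.0815 and of Rps4x to between 0.0610 and 0.103. Hyperoxia library 2 was the highest library for both. An exon of Rps18 overlaps Vps52 on the other strand, and 22.2% of the 75-base windows of Rps18 are its own.

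Rps27a, made as a fusion of ubiquitin and a ribosomal protein, was the 1 gene of the 28 whose groups overlapped, with 1352, 1710 and 1471 in air and 1692, 2096 and 2118 in hyperoxia (0.38 ± 0.11, adjusted p = 0.0311). It missed the threshold without air library 1, air library 3 or hyperoxia library 3, at adjusted p-values of 0.134, 0.0955 and 0.0692. Rps27, with a zinc finger, had 1267, 1416 and 1308 in air and 1473, 2003 and 1681 in hyperoxia (0.36 ± 0.11, adjusted p = 0.0344, and 0.0667 to 0.130 with an air library left out). An exon of Rps27a overlaps Clhc1 on the other strand. Only 1.48% of the windows of Rps27 are its own, the least of the subunit genes tested.

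Rps6, Rpl17 and Rpl38 were examined because their proteins were also measured in the study. Rps6, the small subunit protein that S6 kinases phosphorylate downstream of mTOR, had 3321, 3446 and 2970 in air and 2520, 3096 and 2728 in hyperoxia. The groups overlapped through hyperoxia library 2 and the log2 difference of -0.22 ± 0.09 did not pass (adjusted p = 0.0952). Without that library it was -0.30 with an adjusted p of 0.00787. Rps6 has 11 pseudogenes that share a 75-base window with it, and 15.9% of its windows are its own.

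Rpl17 had 7790, 7238 and 6547 in air and 5135, 6540 and 5138 in hyperoxia, so that the highest hyperoxia value lay just under the lowest air value. It fell by 0.37 ± 0.11 (adjusted p = 0.0295), and the adjusted p was 0.128 without air library 1, 0.0983 without air library 2, 0.113 without hyperoxia library 1 and 0.0648 without hyperoxia library 3. Rpl38, whose loss in mice alters the translation of Hox mRNAs, had 1375, 1955 and 1697 in air and 2090, 3129 and 1989 in hyperoxia. All 3 hyperoxia values lay above air, narrowly for library 3, and the log2 difference of 0.50 ± 0.18 missed the threshold (adjusted p = 0.0556). It passed without hyperoxia library 3 (adjusted p = 0.0234), with DESeq2 (0.00986) and with the trend on length and GC content removed (0.00226).

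**Figure D3:**
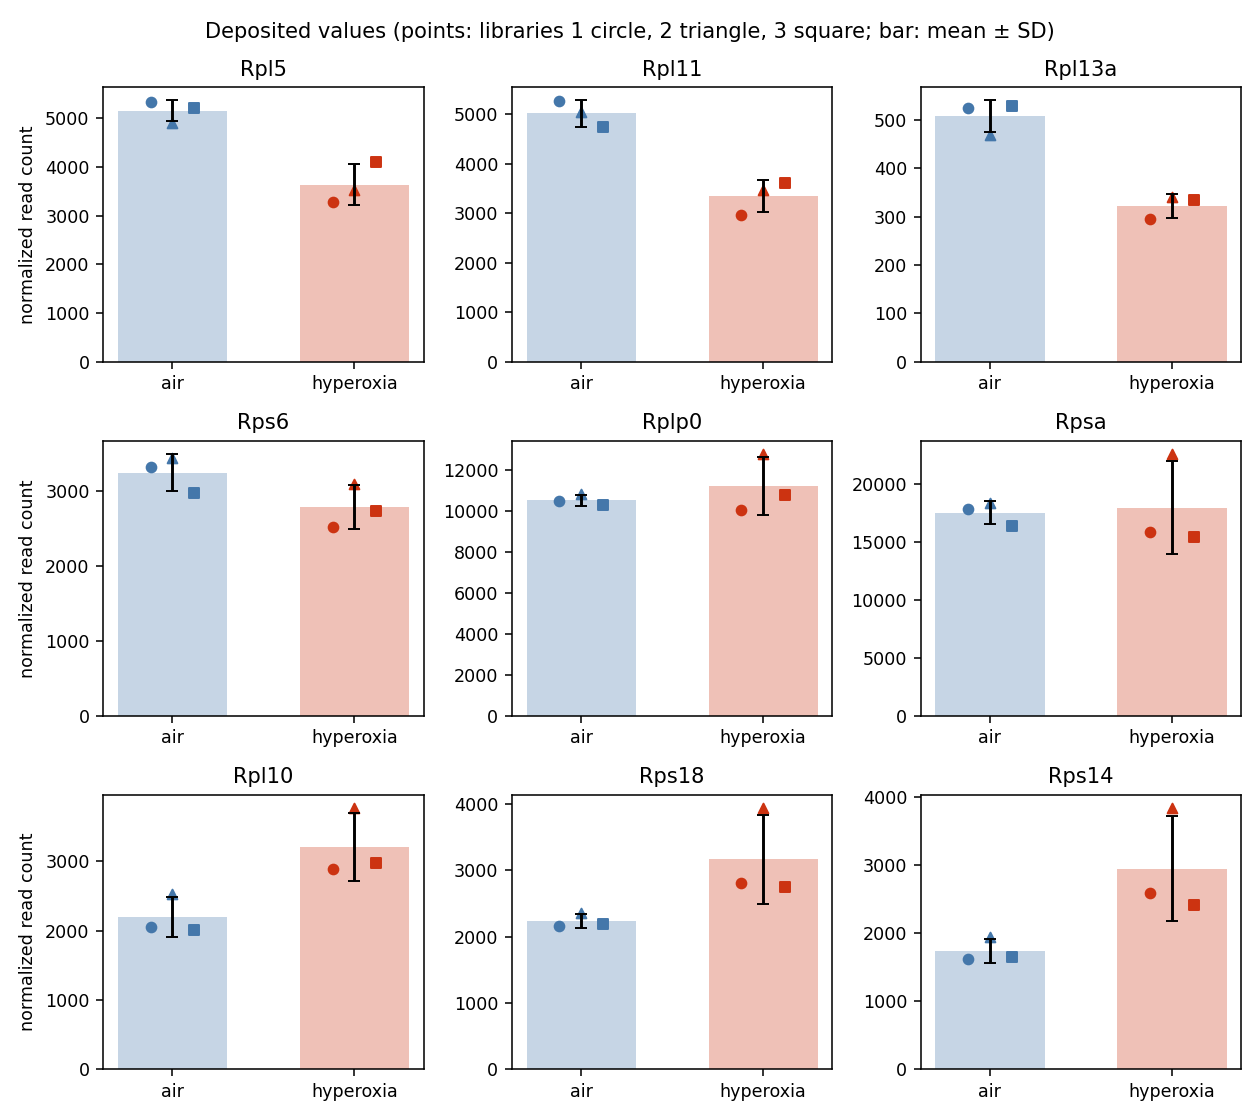
Normalized read counts of 9 ribosomal protein genes in the 3 air and 3 hyperoxia libraries (points, with circle, triangle and square for libraries 1, 2 and 3), with the mean and SD of each group as a bar. Rpl5, Rpl11 and Rpl13a lie lower in hyperoxia without overlap, Rps6, Rplp0 and Rpsa overlap, and Rpl10, Rps18 and Rps14 lie higher, most of all in hyperoxia library 2.

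Another 7 subunit genes passed and were named after their values were seen. Rps26 had 6634, 6038 and 5999 in air and 4133, 5749 and 4059 in hyperoxia and fell by 0.44 ± 0.13 (adjusted p = 0.0264). Rpl36a fell by 0.42, Rps28 by 0.38, Rps29 by 0.34, Rps10 by 0.30 and Rpl36 by 0.27 on the log2 scale. Rpl15 was higher by 0.28. The groups did not overlap in any of these 7, but each call was lost in 5 to 8 of the 18 alternatives, among them the removal of any 1 air library. Of these, 5 (Rpl36a, Rps28, Rps29, Rps10 and Rpl36) missed the threshold with the trend on length and GC content removed.

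**Figure D4:**
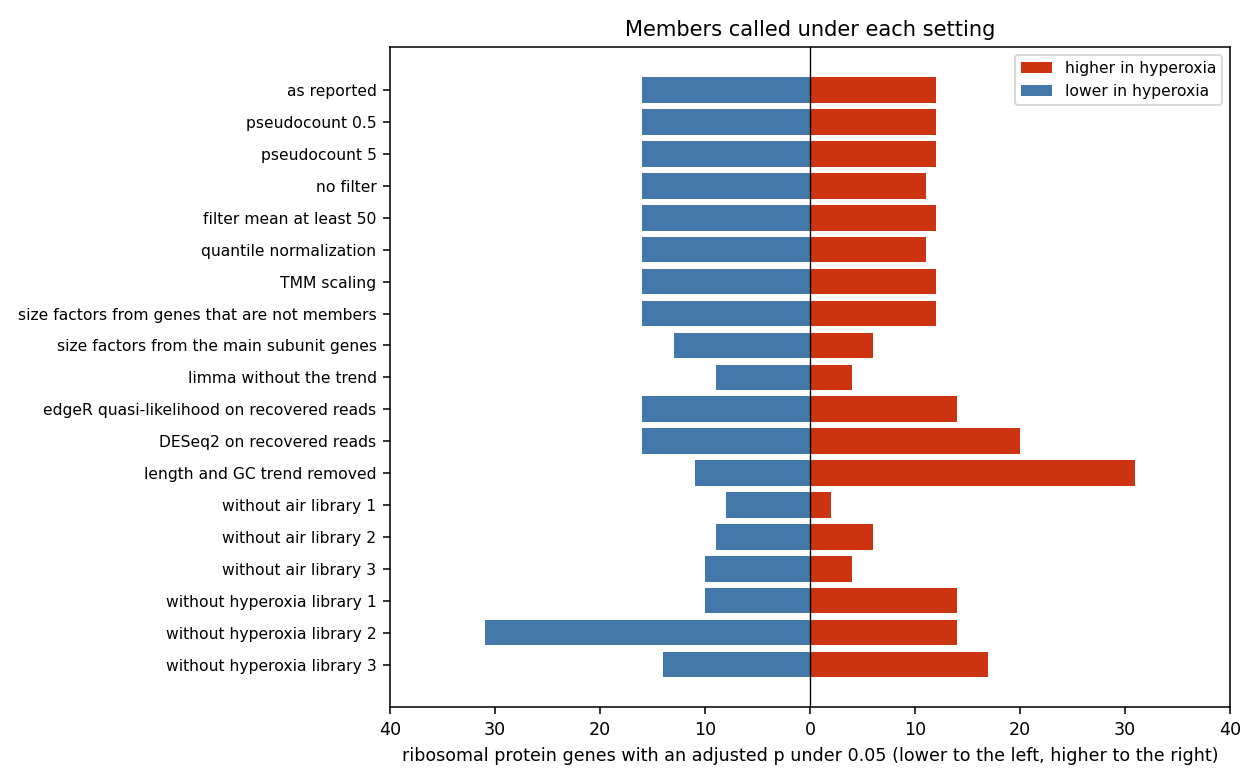
Number of ribosomal protein genes higher and lower at an adjusted p under 0.05 as reported and under each of the 18 alternatives. The counts were 12 and 16 as reported, 2 and 8 without air library 1, 14 and 31 without hyperoxia library 2, and 31 and 11 with the trend on length and GC content removed.

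The genes with the highest mean showed no difference that passed the test, apart from Rplp1. Rpsa, a small subunit protein also known as the laminin receptor, had 17829, 18314 and 16382 in air and 15835, 22551 and 15414 in hyperoxia, with a log2 difference of 0.01 ± 0.14 (adjusted p = 0.947). Rpl4 had 16625, 16497 and 15203 in air and 14048, 17782 and 13701 in hyperoxia (-0.09 ± 0.10, adjusted p = 0.516), and its adjusted p was 0.0182 with a log2 difference of -0.21 without hyperoxia library 2. Rps2 had 14169, 15593 and 13548 in air and 14445, 21458 and 13155 in hyperoxia (0.15 ± 0.16, adjusted p = 0.504). In all 3, hyperoxia library 2 was the highest library and libraries 1 and 3 lay within or under the air range.

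Among the paralogs, of which some replace a main protein in certain tissues, none of the 6 tested passed (1 at an unadjusted p under 0.05). Rpl22 had 2972, 3183 and 2875 in air and 3276, 3830 and 3575 in hyperoxia and was higher (0.24 ± 0.08, adjusted p = 0.0460), but its call was lost in 8 of the 18 alternatives. Its paralog Rpl22l1 had 122.4, 123.1 and 96.5 in air and 76.9, 98.5 and 85.9 in hyperoxia (-0.38 ± 0.16, adjusted p = 0.105, and 0.0432 without hyperoxia library 2). The log2 ratio of Rpl22l1 to Rpl22 was -4.72 ± 0.15 (SD, n = 3) in air and -5.34 ± 0.07 in hyperoxia, without overlap (exact two-sided permutation p = 0.1, adjusted over 6 pairs 0.15).

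Of the 6 pairs compared, 4 had ratios that did not overlap between the groups, and with 3 libraries against 3 the permutation test cannot go below 0.1. No share over other gene pairs is given here, and 46.1% of all single genes tested did not overlap. In these 4 pairs the main gene passed the test and the paralog did not, so the count is not a result about the paralogs. Rpl7l1, a factor of large subunit assembly, had 1339, 1325 and 1292 in air and 1178, 1243 and 1225 in hyperoxia (adjusted p = 0.226). Its log2 ratio to Rpl7 was -1.74 ± 0.10 in air and -2.28 ± 0.17 in hyperoxia (exact permutation p = 0.1). Rpl36al, a retrocopy of Rpl36a, went the other way: it had 775.1, 869.0 and 774.1 in air and 773.5, 949.9 and 820.4 in hyperoxia. Rpl36a itself was lower, and the log2 ratio was -0.92 ± 0.10 in air and -0.43 ± 0.20 in hyperoxia (exact permutation p = 0.1). Only 15.4% of the 75-base windows of Rpl36a are its own, and 76.7% of those of Rpl36al. The ratio could therefore depend on how reads that match several copies were counted.

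Rpl3l, the form of striated muscle, was low, at 32.0, 21.4 and 23.6 in air and 19.4, 24.9 and 22.2 in hyperoxia, with a log2 ratio to Rpl3 of -8.11 ± 0.35 and -8.70 ± 0.09 (exact permutation p = 0.1). Rps27l, a target of p53, had 214.7, 268.6 and 234.1 in air and 253.7, 314.7 and 285.7 in hyperoxia. Its ratio to Rps27 overlapped (exact permutation p = 0.3), as did that of Rps27rt, at 31.8 to 78.1 (exact permutation p = 0.5). Only 9.67% of the 75-base windows of Rps27rt and 1.48% of those of Rps27 are their own. Rpl39 had 485.0, 415.2 and 439.4 in air and 342.1, 398.5 and 510.6 in hyperoxia (adjusted p = 0.570). Its paralog Rpl39l, known from the testis, did not reach the minimum.

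The 8 genes under the minimum were Rpl24, Rpl39l and 6 copies named as pseudogenes. Rpl24, a main large subunit gene, had only 15.1, 11.2 and 7.2 in air and 6.2, 4.5 and 8.7 in hyperoxia, and 19.1% of its 75-base windows are its own. Rpl39l had 0, 3.1 and 0 in air and 1.8, 3.4 and 5.8 in hyperoxia. Rpl13-ps3, Rpl13a-ps1, Rpl27-ps3, Rpl36-ps3, Rpl7a-ps3 and Rps2-ps6 lay between 0 and 15.1. The 4 copies that were tested, Rpl10-ps3, Rpl7a-ps5, Rpl9-ps6 and Rpl23a-ps3, did not pass, with a median log2 difference of -1.12. Without hyperoxia library 2, 2 of the 4 were lower and the median was -1.73, beside 22.0% of all genes lower. All 10 copies together had sums of 309.8, 165.9 and 137.6 in air and 105.2, 203.8 and 40.5 in hyperoxia, and the groups overlapped.

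The subunit genes of one chromosome did not share a direction. The 14 tested on chromosome 7 included 1 higher and 1 lower gene. On chromosome 11, Rpl19, Rpl23 and Rpl23a were lower and Rps27a was higher. Of 30 genes with a snoRNA gene inside, 3 were higher and 7 lower (median log2 difference -0.07), and of 46 without one 9 were higher and 9 lower (0.11). These groups were not tested against each other.

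Among ribosomal proteins whose symbols do not start with Rpl or Rps, Fau, the fusion that gives a small subunit protein, and Rack1, a scaffold on the small subunit, did not pass (log2 differences 0.22 and -0.02, adjusted p = 0.313 and 0.878). Of 14 other TOP mRNAs of the translation machinery, 1 was higher and 4 lower (35.7%, beside 30.5% of all genes), and the median log2 difference was -0.04. Npm1, a nucleolar chaperone, fell by 0.51 ± 0.08 (adjusted p = 0.00201) and Pabpc1, the poly(A)-binding protein, by 0.32 ± 0.07 (adjusted p = 0.0107). Eef1b2, an exchange factor of elongation, was higher (0.39 ± 0.10, adjusted p = 0.0195), while Eef1a1 and Eef2 had differences of -0.03 and 0.09 that did not pass.

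The ribosome biogenesis genes lay mostly on one side. Of 34, all tested, 15 were lower and 1 higher, beside 15.6% and 14.9% of all genes, and the median log2 difference was -0.19. Their median deviation from the air mean was -0.20, -0.20 and -0.19 in hyperoxia libraries 1, 2 and 3, so library 2 did not stand apart here. Without that library, 17 were lower and 4 higher (61.8%, beside 43.6% of all genes). Sbds, which helps to release eIF6 from the new large subunit, had 2283, 2148 and 2160 in air and 1530, 1627 and 1418 in hyperoxia and fell by 0.53 ± 0.08 (adjusted p = 0.00156). Ubtf, a factor of RNA polymerase I, had 6237, 6231 and 6258 in air and 4811, 5088 and 4924 in hyperoxia and fell by 0.34 ± 0.06 (adjusted p = 0.00436). Dkc1 and Gar1, of the complex that modifies uridines in ribosomal RNA, fell by 0.45 ± 0.10 and 0.41 ± 0.09 (adjusted p = 0.00795 and 0.00892), and Eif6 was the gene that was higher (0.25 ± 0.08, adjusted p = 0.0333).

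Among 11 regulators of the translation of TOP mRNAs, 1 was lower and 1 higher (18.2%, beside 30.5% of all genes). Rps6kb2, an S6 kinase, had 1635, 1703 and 1748 in air and 1011, 1210 and 1072 in hyperoxia and fell by 0.63 ± 0.08 (adjusted p = 0.00114). Mtor had 2983, 2836 and 2858 in air and 3825, 3322 and 3922 in hyperoxia and was higher (0.35 ± 0.08, adjusted p = 0.0104). Larp1 and Rps6kb1 did not pass (log2 differences -0.10 and -0.09, adjusted p = 0.287 and 0.513).

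The mitochondrial ribosomal protein genes, the counterpart of the cytosolic family, had 3 higher and 20 lower genes of 77 tested (29.9%, beside 30.5% of all genes), with a median log2 difference of -0.17. Mrpl12 showed the largest fall, from 1589, 1293 and 1297 in air to 561.3, 801.6 and 560.8 in hyperoxia (-1.13 ± 0.15, adjusted p = 0.000998). Without hyperoxia library 2 the list had 3 higher and 40 lower genes (55.8%, beside 43.6% of all genes called and 22.0% lower) and a median of -0.25. As in the cytosolic family, library 2 lay highest of the hyperoxia libraries, with a median deviation of 0.00 against -0.24 and -0.25 in libraries 1 and 3.

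**Figure D5:**
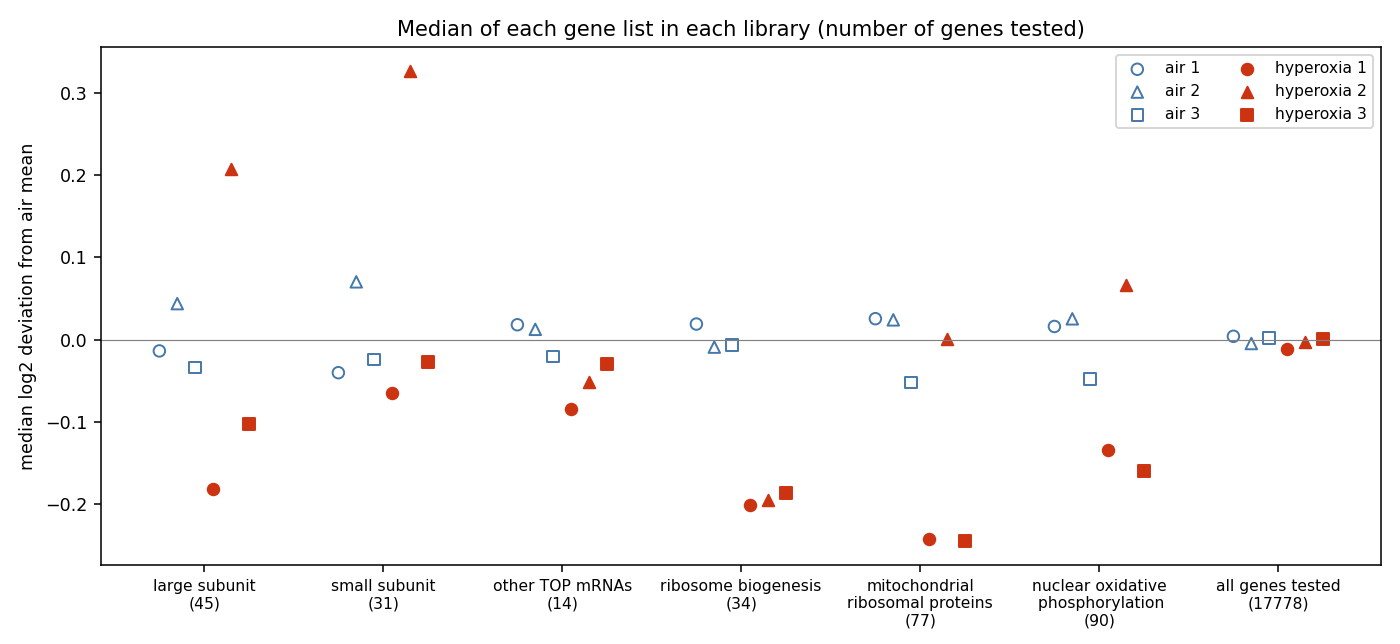
Median over the tested genes of each list (numbers in brackets) of the log2 deviation from the air mean, in each of the 6 libraries. Hyperoxia library 2 lies at 0.21 for the large and 0.33 for the small subunit, where libraries 1 and 3 lie at or below 0, while the 3 hyperoxia libraries lie together at -0.19 to -0.20 for ribosome biogenesis.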

How the data were processed

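RNA-seq libraries of the left hippocampus (strand-specific, polyA-selected, paired-end) from 3 air-exposed and 3 hyperoxia-exposed pups were analysed from the deposited table. Its values are a signal that the authors made by dividing read counts by 1 size factor per library. The submitters' notes name FastQC, STAR 2.5.3a, HTSeq and DESeq2. The genome build, annotation and strand setting were not given in the sources used here. A second table holds the authors' own fold changes, standard errors, statistics and p-values and was not used. Whole reads were recovered from the steps of the values: 100% came out whole in each library, at a tolerance of 0.01 reads.

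Log2 of the value plus 1 was compared over all 17778 genes with a mean of at least 10 in R 4.3.3 with limma 3.58.1 and a trend of variance on the mean. P-values were adjusted by Benjamini-Hochberg over these genes, and the threshold was 0.05. Fold changes on this scale understate those of low genes. A standard error is that of limma. Paralog ratios were compared by exact two-sided permutation tests. Run on those reads, the quasi-likelihood test of edgeR 4.0.16 called 5501 and DESeq2 1.42.0 called 5611 of all genes. Also tried were a pseudocount of 0.5 or 5, a minimum mean of 50 or none, quantile, TMM and other size factors, no trend, removal of a trend on length and GC content (mgcv 1.9.3), and each library left out. The limma step was tested on simulated data. Positions, lengths and 75-base windows came from GENCODE M21 on GRCm38 (99.68% of gene identifiers found), which may not be the authors' annotation. P-values measure the spread between these 3 pups a group.

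The members and gene lists were chosen with earlier results of these data known. Genes named are Rps6, Rpl17, Rpl38, the stalk and 5S proteins, Rpsa, the paralog pairs and Rps4x, the called members with the 8 largest rises and the 8 largest falls, the 5 with the highest mean and all under the minimum. Any other member was chosen after its values were seen. A few genes that this rule takes are not reported here.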

Additional observations from a re-analysis of the deposited data

How the results depend on the processing

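No paired analysis was possible because the column numbers 1 to 3 name no animal, litter or batch. Of the 28 ribosomal protein genes called (16 large and 12 small subunit), pseudocounts, filters, quantile and TMM scaling and size factors from the other genes gave 27 or 28, edgeR 30 and DESeq2 36. Limma without the trend called 13 (10 large, 3 small). The share of all genes called is not given here for that setting, nor without hyperoxia library 1 or 3. Size factors from the subunit genes called 19, with 7 in the small subunit, and removal of the trend on length and GC content called 42. Leaving out 1 library gave 10 to 45 in all, 8 to 27 in the large and 2 to 15 in the small subunit: 10, 15 and 14 without air libraries 1, 2 and 3 and 24, 45 and 31 without hyperoxia libraries 1, 2 and 3. The cause was not tested, though a library less also leaves fewer degrees of freedom. The median log2 difference lay between -0.12 and 0.14 over all alternatives and the log2 ratio of the summed shares between -0.02 and 0.17, so neither kept its sign. The number of paralog pairs without overlap was 4 or 5. Of 629 values of 35 named genes under the alternatives, 577 kept their side of the threshold, 44 lost and 8 gained a call, and none of the called values changed sign. Among the called genes outside these, Rpl36, Rpl36a, Rps10, Rps28 and Rps29 lost their call with the trend on length and GC content removed (adjusted p = 0.579, 0.150, 0.318, 0.745 and 0.850).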

Other observations

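Nuclear genes of oxidative phosphorylation had 4 higher and 19 lower genes of 90 tested (25.6%, beside 30.5% of all genes), with a median log2 difference of -0.08. Without hyperoxia library 2 there were 4 higher and 39 lower (47.8%, beside 43.6% of all genes) and the median was -0.16. The median deviation of this list from the air mean was -0.13, 0.07 and -0.16 in hyperoxia libraries 1, 2 and 3, again highest in library 2.

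The 120 pseudogenes of ribosomal proteins in the table summed to 4097, 3211 and 2597 in air libraries 1, 2 and 3 and to 2412, 3738 and 2012 in hyperoxia libraries 1, 2 and 3. Of 44 tested, 4 were lower and none higher by limma (9.09%, beside 30.5% of all genes), with 6 at an unadjusted p under 0.05. Without hyperoxia library 2 there were 13 lower (29.5%, beside 43.6% of all genes). Tested protein-coding genes outside the family with a transcript within its whole range, from 315 to 5179 bases, numbered 12077. Of these, 12.5% were higher and 18.5% lower, with a median log2 difference of -0.04. The range is wide beside the median of 886.5 bases of the tested subunit genes, so these genes were not matched in length. A log2 difference of at least 0.25 in size was seen in 38 of the 76 tested subunit genes and in 41.3% of 8733 protein-coding genes with a mean from 500 to 25000, with a standard deviation of the log2 differences of 0.33 in both.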
